A study of Mus musculus with 4 samples.

Results

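Fat cells and the lipid handling cells of the lung share a small set of genes for taking up, carrying, storing and releasing fatty acids. The 10 genes described here belong to that set: Cd36, Lpl, Fabp4, Fabp5, Pnpla2, Scd1, Pck1, Cebpa, Adipoq and Cfd. They were followed in whole lungs of C57BL/6J mice after inhalation of hexamethylene diisocyanate (HDI), a reactive ingredient of polyurethane paints. Members were all probe sets whose platform gene symbol was one of the 10. This gave 13 probe sets for 9 genes, out of 12488 probe sets and 8251 genes in all. No probe set listed here carries the symbol of Cfd, the complement factor adipsin, so Cfd has no value.

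The exposed groups were lungs taken 6, 18 and 90 h after an HDI aerosol of 10 mg per cubic metre, and the comparison group was unexposed lungs of the same strain. Lungs were pooled, and each of the 4 pools was read on 1 Affymetrix MG_U74Av2 array. The number of mice in a pool is not given in the sources used here. A group of 1 array has no replicates, so the differences carry neither a test nor a p-value, and the number of arrays limits the precision.

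Values are intensities in array units after the 4 arrays were scaled to a common trimmed mean, and values below 77.7 units, the floor, count as too dim to measure. Where only 1 of the 2 arrays compared was above the floor, the fold is a lower bound and is written with "at least". A probe set is a group of short probes read out together, and intensities of different probe sets cannot be set against each other. Between unsuffixed probe sets of the same gene, the log2 differences at 6 h against unexposed lungs typically disagreed by 0.26 (median of 311 pairs). The 3' over 5' signal ratio of the array's controls, a sign of RNA integrity, was 1.12 to 1.22 for Gapdh over the 4 pools. For Actb it spread more, at 1.30 to 1.55, lowest at 6 h and highest at 90 h, and its part in the results was not tested.

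In fat tissue, lipoprotein lipase (Lpl) on the capillary wall frees fatty acids from circulating triglyceride, Cd36 helps them into cells, and the binding proteins Fabp4 and Fabp5 carry them inside. Pnpla2 starts the release of fatty acids from stored triglyceride, and Adipoq is the hormone adiponectin. In the lung, alveolar type II cells make surfactant lipid, alveolar macrophages clear it, and capillary endothelium takes up fatty acids, so most of these genes are active outside fat as well.

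Of the 9 measured genes, 5 were at least 1.5-fold higher in the 6 h pool than in unexposed lungs, namely Fabp4, Pnpla2, Lpl, Pck1 and Adipoq. Of these, Fabp4 and Pnpla2 were at least 2-fold higher, and Cd36 was at least 2-fold lower by its brightest probe set. Among all 6044 genes compared, 2.17% were at least 2-fold higher and 1.51% at least 2-fold lower. At 18 h none of the 8 compared members was 2-fold away from unexposed lungs in either direction, beside 1.59% higher and 0.944% lower among all genes. At 90 h none of 8 was, beside 0.726% higher and 0.924% lower. Fabp4 was the only member at least 2-fold lower at 18 h than at 6 h, beside 1.17% of genes lower and 1.18% higher. None of the 7 members compared was 2-fold apart between 90 and 18 h, beside 0.904% higher and 0.954% lower. The median log2 difference of the members was 0.79 at 6 h, -0.12 at 18 h and 0.06 at 90 h, while that of all genes compared was -0.04, -0.01 and 0.03. Pck1 entered the 6 h comparison only through its 6 h value, so it could only come out higher. Its bound of 0.90 lies above the member median there and so lifts that median. All 3 comparisons share the unexposed array.

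A 1.5-fold threshold took in more members, most of them higher at 6 h than in unexposed lungs or lower at 18 h than at 6 h. At 6 h 5 were higher and 1 lower, beside 7.16% and 6.06% of all genes. At 18 h none was higher and 1 lower, beside 6.79% and 6.11%. At 90 h 1 was higher, Fabp5, and 1 lower, beside 3.42% and 4.88%. The lower member at each time was Cd36 by its brightest probe set. The 18 h pool had none higher and 4 lower than the 6 h pool, beside 5.34% and 4.75%, and these were Fabp4, Pnpla2, Pck1 and Adipoq. Of these, Pck1 and Adipoq were under the floor at 18 h and were compared only through their 6 h values, so they could only come out lower. The 90 h pool had 1 higher and none lower than the 18 h pool, again Fabp5, beside 3.68% and 3.98%.

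**Figure D1:**
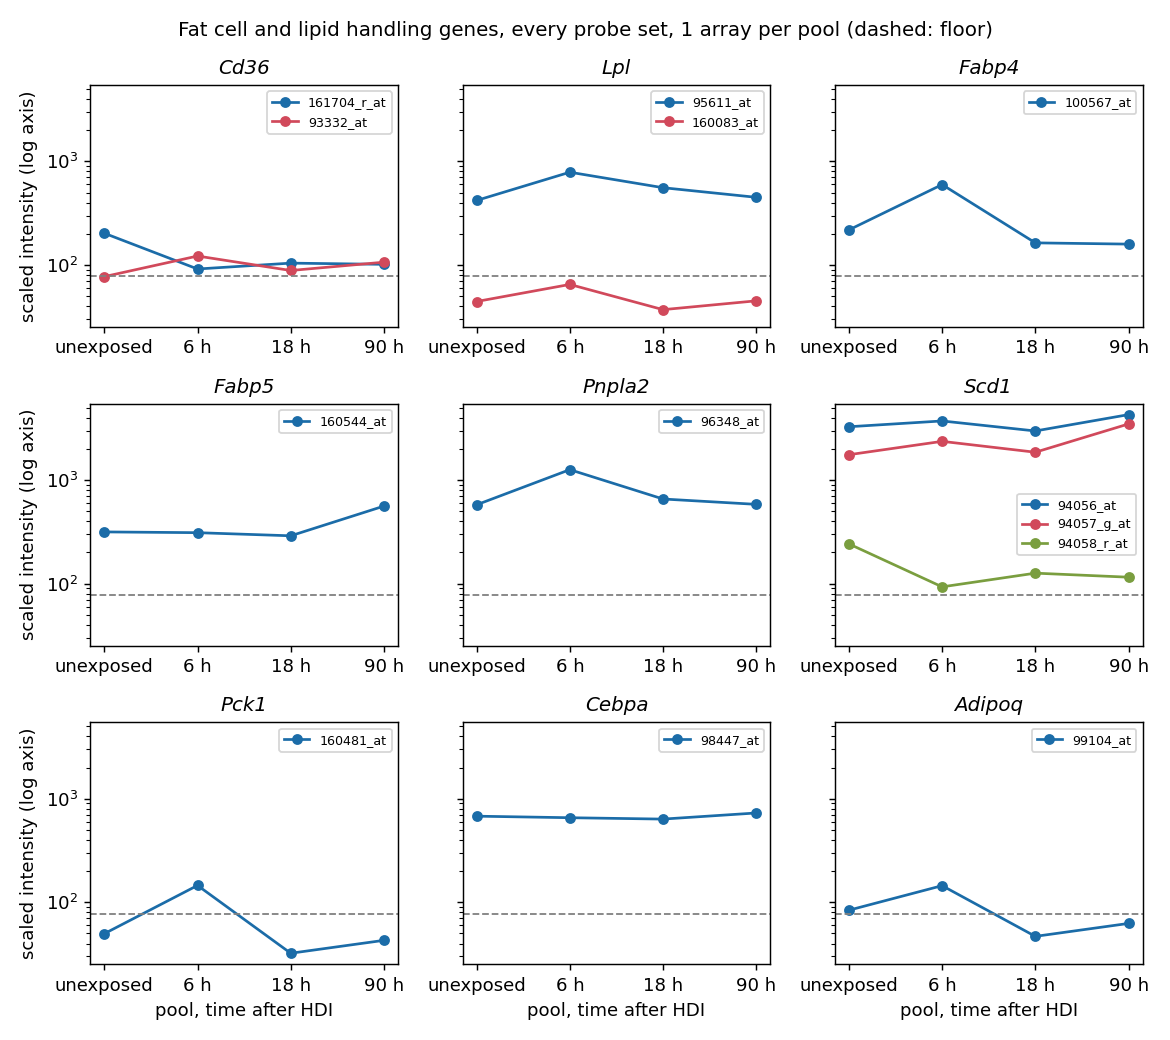
Scaled intensity (log axis) of every probe set of the 9 measured genes in the unexposed, 6, 18 and 90 h pools, 1 array per pool, with the floor of 77.7 units dashed. Fabp4, Pnpla2, Lpl, Pck1 and Adipoq are highest in the 6 h pool, Fabp5 is highest at 90 h, and the probe sets of Cd36 and of Scd1 run in opposite directions.

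RefSeq promoter windows were listed for 6 of the 10 genes. Those of Pnpla2, Pck1 and Adipoq are shown because these genes were higher together at 6 h; Fabp4 and Lpl had no listed window. Each is the 250 bases before the transcription start in build GRCm38.p6, on the plus strand, at chr7:141454938-141455187 for Pnpla2, chr2:173152823-173153072 for Pck1 and chr16:23146286-23146535 for Adipoq. Capitals mark matches to the motifs given after them.
Pnpla2: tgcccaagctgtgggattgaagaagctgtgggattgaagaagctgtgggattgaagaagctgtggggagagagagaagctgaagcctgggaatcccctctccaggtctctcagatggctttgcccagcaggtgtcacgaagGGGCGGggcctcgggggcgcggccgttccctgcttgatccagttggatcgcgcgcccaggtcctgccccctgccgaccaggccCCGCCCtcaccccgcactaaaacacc
Pck1: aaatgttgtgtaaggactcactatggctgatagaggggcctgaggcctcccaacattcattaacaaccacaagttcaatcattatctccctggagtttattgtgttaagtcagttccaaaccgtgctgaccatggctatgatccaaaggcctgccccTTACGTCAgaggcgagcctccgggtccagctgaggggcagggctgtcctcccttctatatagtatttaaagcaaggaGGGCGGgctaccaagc
Adipoq: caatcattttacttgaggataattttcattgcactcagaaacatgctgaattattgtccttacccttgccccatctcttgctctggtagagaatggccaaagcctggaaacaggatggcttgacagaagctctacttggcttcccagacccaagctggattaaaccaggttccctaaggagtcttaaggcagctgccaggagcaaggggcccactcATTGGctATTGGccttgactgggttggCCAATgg

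A set of 7 motifs was searched on both strands in these 250 bases, with no overlap between matches of different motifs in the windows shown. The GC box (GGGCGG) occurred 2 times in the Pnpla2 window and 1 time in that of Pck1, and 32.7% of all 32851 promoter windows hold it. The cAMP response element (TNACGTCA) occurred only in the Pck1 window among the 6, and 2.52% of all windows hold it. It begins 93 bases before the start. The CCAAT box (CCAAT) occurred 3 times in the Adipoq window and is held by 33.8% of all windows. The core hexamer of the glucocorticoid receptor element (TGTTCT, in 16.1% of all windows), the C/EBP site (TTGCGCAA, 0.164%) and the direct repeat bound by PPAR and RXR (0.0335%) were found in none of the 6 member windows. TATAAA (12.4%) was found only in that of Cebpa. A match is a description of the letters and not evidence of binding.

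Among the genes of fatty acid uptake, Lpl read 419, 786, 557 and 449.5 units in the unexposed, 6, 18 and 90 h pools by its brighter probe set. It was 1.87-fold higher at 6 h and 1.33-fold higher at 18 h than in unexposed lungs (log2 differences of 0.91 and 0.41). The other Lpl probe set was below the floor in all 4 pools, at 44.3, 64.8, 37.0 and 45.0 units, so it gives no fold, though its highest value was also in the 6 h pool. With both probe sets averaged, the log2 difference at 6 h was 0.45.

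Cd36, a scavenger receptor and fatty acid transporter, gave no settled direction. Its brightest probe set, whose suffix r marks that some probe selection rules were dropped, read 202, 91.3, 104 and 101 units in the unexposed, 6, 18 and 90 h pools. That is 2.21-fold lower at 6 h, 1.94-fold lower at 18 h and just under 2-fold lower at 90 h. The unsuffixed probe set read 77.1, 122, 88.3 and 106 units, from under the floor in unexposed lungs, and so was at least 1.57-fold higher at 6 h. The first was highest in the unexposed pool and the second lowest there.

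Scd1, the desaturase that makes monounsaturated fatty acids and is abundant in type II cells, showed the same kind of disagreement. Its brightest probe set read 3272, 3721, 2978 and 4284 units in the unexposed, 6, 18 and 90 h pools. The second, with suffix g, read 1757, 2364, 1856 and 3482 units. Both were lowest in the unexposed or 18 h pool and highest at 90 h, where they were 1.31-fold and 1.98-fold higher than in unexposed lungs. The third Scd1 probe set, with suffix r, read 242, 93.0, 126 and 115 units, and was 2.60-fold lower at 6 h and 2.10-fold lower at 90 h.

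The r-suffixed probe sets of Cd36 and Scd1 were at least 1.5-fold lower than in unexposed lungs at all 3 times. Most of their class were not. Of 332 probe sets with this suffix that were above the floor on all 4 arrays, 32 (9.64%) were at least 1.5-fold lower than in unexposed lungs at all 3 times. Of 5285 without a suffix, 45 (0.851%) were. The medians of the r class were -0.17, -0.27 and -0.25 at 6, 18 and 90 h, while those of unsuffixed probe sets were -0.03, 0.00 and 0.04. This split by suffix was made after the values were seen, and its part in the Cd36 and Scd1 values was not tested.

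**Figure D2:**
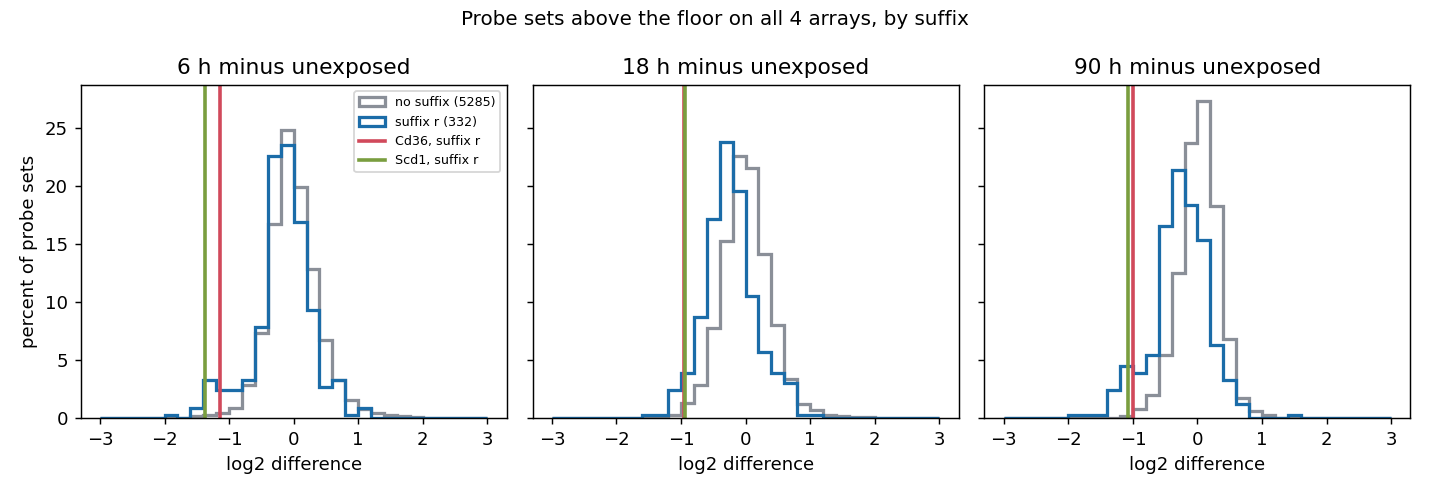
Percent of probe sets (vertical axis) by log2 difference from unexposed lungs (horizontal axis) at 6, 18 and 90 h, for 332 probe sets with suffix r and 5285 without a suffix, all above the floor on the 4 arrays. Vertical lines mark the r-suffixed probe sets of Cd36 and Scd1, at -1.15 and -1.38 at 6 h, on the low side of both classes.

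The binding proteins differed in time. Fabp4, the fatty acid binding protein of fat cells, macrophages and capillary endothelium, read 218, 597, 163 and 159 units in the unexposed, 6, 18 and 90 h pools. It was 2.74-fold higher at 6 h than in unexposed lungs, and 1.33-fold and 1.37-fold lower at 18 and 90 h. The 18 h pool was 3.65-fold below the 6 h pool (log2 difference of -1.87).

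Fabp5, the epidermal type that macrophages and epithelia also use, read 316, 310.3, 289.5 and 561 units in the unexposed, 6, 18 and 90 h pools. It was level in the first 3 pools and 1.78-fold higher at 90 h than in unexposed lungs. Against the 18 h pool it was 1.94-fold higher.

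Pnpla2, the triglyceride lipase of lipid droplets, read 577, 1260.2, 656 and 583 units in the unexposed, 6, 18 and 90 h pools. It was 2.18-fold higher at 6 h, and its log2 differences at 18 and 90 h were 0.19 and 0.01. The 6 h pool alone stood apart for this gene.

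Pck1, an enzyme that makes glucose in liver and kidney and the glycerol backbone of triglyceride in fat, read 49.8, 145, 32.2 and 42.9 units. Only the 6 h pool was above the floor, so the gene was at least 1.87-fold higher there, and it could be compared at 6 h only because it was high there. Adipoq, the defining hormone of fat cells, read 83.9, 145, 46.9 and 62.5 units in the unexposed, 6, 18 and 90 h pools. It was 1.73-fold higher at 6 h, and was under the floor at 18 and 90 h. Both genes were so dim that a floor at the 60th percentile left log2 differences of 0.08 and 0.07.

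Cebpa, the transcription factor that drives fat cell differentiation and is also needed by type II cells, read 679, 656, 636 and 729 units in the unexposed, 6, 18 and 90 h pools. Its log2 differences were -0.05, -0.09 and 0.10, smaller than the typical disagreement between probe sets of a gene. The 4 pools lay within 636 to 729 units.

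Other fat cell markers were partly higher at 6 h. Of 25 listed white and brown fat genes, 19 had a named probe set and 15 were above the floor in the 6 h or unexposed pool. Of these 15, Cidea, Ucp1, Pck1 and Dio2 were above the floor in the 6 h pool but not in the unexposed pool, so they could only come out higher. Of the 11 measured in both pools, 9 were above unexposed lungs and 2 below, beside 45.0% above among the 5359 genes so measured, and none was past 2-fold. Their median log2 difference was 0.14, beside -0.04 for all genes. Without the members, 8 of 10 were above, with a median of 0.11. Of the 9 above, Adipoq, Retn, Thrsp and Car3 were 1.64-fold to 1.73-fold higher. The others, Cox7a1, Agt, Lep, Gpd1 and Lipe, had log2 differences of 0.04 to 0.17, smaller than the typical disagreement between probe sets of a gene. The 2 below were Slc2a4 at -0.23 and Cox8b at -0.17. The summed intensity of the list was 1837, 2586, 1772 and 1689 units in the unexposed, 6, 18 and 90 h pools, highest at 6 h. Without the members it was 1703, 2296, 1693 and 1584 units. Both sums include genes under the floor.

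The defining markers among them did not move as 1 group. Ucp1, the uncoupling protein of brown fat, read 19.5, 141, 18.9 and 5.45 units, above the floor only at 6 h, where it was at least 1.81-fold higher. Car3, a carbonic anhydrase abundant in fat and in skeletal muscle, read 344, 566, 235 and 321 units and was 1.64-fold higher at 6 h. Retn, the hormone resistin, read 86.7, 149, 151 and 148 units, higher in all 3 exposed pools. Lep, the hormone leptin, read 186, 195, 205 and 162 units by its g-suffixed probe set, with a log2 difference of 0.07 at 6 h, while its unsuffixed probe set had -0.24. Cidec, a lipid droplet protein of fat cells, was under the floor in all 4 pools, and neither Plin1 nor Cfd had a probe set to read. Of the 6 defining markers with a probe set, 5 were above the floor in the 6 h pool and 4 in the unexposed pool, and 3 each at 18 and 90 h.

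Acta1, Myh1 and Atp2a1, transcripts of skeletal muscle, were also higher in the 6 h pool, though their list was not. Acta1, the skeletal muscle actin, read 7.25, 611, 392 and 1.69 units in the unexposed, 6, 18 and 90 h pools. Myh1, a skeletal myosin, read 11.5, 115, 52.9 and 1.93 units. Atp2a1 read 147, 293, 226 and 146 units by its brightest, s-suffixed probe set. It was just under 2-fold higher at 6 h and 1.54-fold higher at 18 h, while its other probe set was under the floor in all 4 pools. The skeletal myosin Myh2 and the troponin Tnni2 were under the floor in all 4 pools, as was the brightest probe set of Myh4, while its other one read 19.1, 94.0, 15.4 and 7.81 units. Casq1, a calcium store protein, read 49.3, 77.7, 53.3 and 58.7 units. It was above the floor only at 6 h, and barely, so its log2 difference of 0.00 there is a lower bound. Acta1 was still at least 5.05-fold higher at 18 h, while Myh1 was back under the floor. Of the 10 listed fat cell genes measured in both the 18 h and unexposed pools, 5 were above unexposed lungs. Among all genes so measured, 48.4% were. Nppa, the atrial peptide of heart, read 244, 181, 163 and 160 units. Of the 22 compared heart and skeletal muscle genes, 9 were above unexposed lungs at 6 h and 13 below, beside 45.4% above among all genes compared. Acta1 alone was past 2-fold, beside 2.17% of all genes higher and 1.51% lower, and the median was -0.06. Acta1, Myh1 and Casq1 were among the 22 only through their 6 h values. At 90 h Mb, the oxygen store myoglobin of heart and skeletal muscle, was 4.24-fold lower by its brightest probe set and 1.68-fold lower by its other one, and at 6 h their log2 differences were 0.22 and -0.21. The list's summed intensity was 8180, 8089, 7504 and 6012 units.

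**Figure D3:**
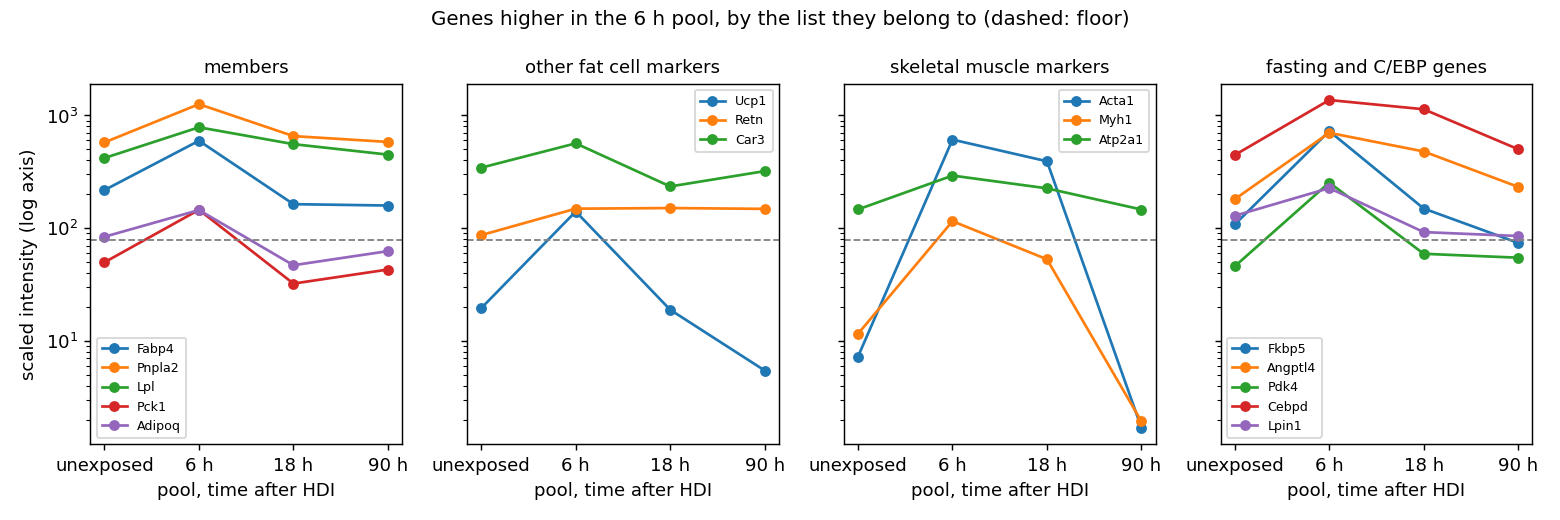
Scaled intensity (log axis) in the unexposed, 6, 18 and 90 h pools of 5 members, 3 other fat cell markers, 3 skeletal muscle markers and 5 genes of fasting, lipid and C/EBP lists, with the floor dashed. Ucp1 and Pck1 are above the floor only at 6 h, Acta1 at 6 and 18 h, while Cebpd and Angptl4 are high at 6 and 18 h.

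Markers of the lung's own lipid handling cells showed no shared increase at 6 h. The 9 compared type II cell markers had a median of -0.09, with 1 above and 8 below unexposed lungs, beside 45.4% above among all genes compared. Sftpc and Sftpb, the surfactant proteins C and B, had log2 differences of -0.07 and 0.04. Sftpc read 9138 to 9871 units over the 4 pools labelled as lung. The 13 alveolar macrophage markers had a median of -0.02. After Lpl, the highest among them was Mrc1, the mannose receptor, at 0.22. Lowest was Abcg1, a cholesterol exporter, with 159 units at 6 h, against 318 units in unexposed lungs. The 16 capillary endothelium markers had a median of -0.04, with Pecam1, a junction protein, at 0.15, Cdh5, a cadherin, at -0.03, and Kdr, a VEGF receptor, 2.45-fold lower. The 17 lipofibroblast and fibroblast markers had a median of -0.17. In this list Plin2, the lipid droplet coat protein, was 1.70-fold higher, and Tcf21, a transcription factor of lung mesenchyme, was at least 2.32-fold lower. Eln, which encodes elastin, was 2.25-fold higher at 90 h. Summed levels over the 4 pools spanned 22589 to 26184 units for type II cells and 12626 to 13781 units for endothelium.

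In pools of whole lung, RNA from fat beside the lung and RNA from lung cells that express the same genes cannot be told apart, nor can more cells of a type and more RNA per cell. The part of adjoining fat or muscle in the member values was not tested.

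At 90 h, when Fabp5 was highest, most markers of macrophages, type II cells and fibroblasts were above unexposed lungs. Of 11 macrophage markers measured in both pools, 10 were above unexposed lungs and 2 were past 2-fold, with a median of 0.36. Without the member Lpl, 9 of 10 were above, with a median of 0.38. Of the type II cell markers, 7 of 9 were above, with a median of 0.14. Of the lipofibroblast and fibroblast markers 12 of 17 were, with 0.18, and of the endothelium markers 4 of 16, with -0.10. Among the 5383 genes so measured, 54.1% were above and 26 were past 2-fold higher, with a median of 0.03. Ctsk, a lysosomal protease above the floor at 90 h but not in unexposed lungs, was at least 3.10-fold higher, Chil3, a secreted chitinase-like protein, 2.16-fold and Mrc1 2.04-fold. The summed intensity of the macrophage list was 5419, 5501, 5307 and 7082 units in the unexposed, 6, 18 and 90 h pools. Marco, a scavenger receptor that defines alveolar macrophages, stayed under the floor, at 18.2, 22.2, 38.1 and 46.1 units. Car4, also a defining marker and listed for endothelium too, read 567, 502, 561 and 510 units. It was the measured macrophage marker below unexposed lungs at 90 h, with a log2 difference of -0.15. Fabp4, which alveolar macrophages also express, was below unexposed lungs at 90 h. The part of macrophages or of the other cells in the Fabp5 value was not tested.

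Most pathway lists around the members had medians at 6 h near the -0.04 of all genes compared. Of all those genes, 2.17% were at least 2-fold higher and 1.51% lower. Of 16 compared genes of fatty acid uptake, binding and activation, 2 were at least 2-fold higher and 1 lower, with a median of -0.04. Beside Fabp4 and Cd36 this was Angptl4, a secreted inhibitor of lipoprotein lipase, which read 181, 702, 479 and 232 units and was 3.89-fold higher at 6 h and 2.65-fold at 18 h. These values are from an s-suffixed probe set, and a second one, with suffix f, gave a log2 difference of 2.29 at 6 h. The other 2 Angptl4 probe sets, an r-suffixed and the only unsuffixed one, were under the floor in all 4 pools. Fabp3, the heart type of binding protein, had a log2 difference of 0.25. Of 14 genes of lipid droplets and triglyceride breakdown, only Pnpla2 passed 2-fold, with a median of 0.00. In this list Lpin2 and Lpin1, phosphatidate phosphatases of triglyceride synthesis, were 1.84-fold and 1.76-fold higher, while G0s2, an inhibitor of Pnpla2, was 1.56-fold lower.

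Synthesis and oxidation genes showed no shared difference at 6 h. Of 15 genes of fatty acid synthesis and desaturation, none passed 2-fold, and the median was -0.05. Among all genes compared, 2.17% were at least 2-fold higher and 1.51% lower. Pgd, of the pentose phosphate pathway, and Thrsp, a lipogenic protein, were 1.76-fold and 1.69-fold higher, while Srebf1, the lipogenic transcription factor, was 1.70-fold lower and the elongase Elovl1 1.56-fold lower. The synthesis list, which holds Scd1, stood higher at 18 and 90 h. At 90 h 11 of 15 were above unexposed lungs with a median of 0.33, beside 53.8% and 0.03 for all genes compared. Without Scd1, 10 of 14 were above, with a median of 0.28. At 18 h, when the brightest Scd1 probe set was lowest, 9 of 15 were above. The median then was 0.24, beside 48.2% above and -0.01 for all genes compared. Of 17 oxidation genes, Pdk4, a kinase that shuts off glucose oxidation, alone was past 2-fold at 6 h, and the median was -0.08. It read 254 units at 6 h, against 45.9 units in unexposed lungs, and so was at least 3.27-fold higher.

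Among 21 transcription factors and partners of fat cell differentiation, the median at 6 h was -0.05 and Cebpd alone passed 2-fold by brightest probe sets. Of all genes compared, 2.17% were at least 2-fold higher and 1.51% lower. Klf9, a glucocorticoid-induced factor, was 1.59-fold higher at 6 h by its brightest, s-suffixed probe set, and 2.33-fold higher by its unsuffixed one. Cebpd, an early factor of the same family as Cebpa, read 446, 1371, 1136 and 502 units in the unexposed, 6, 18 and 90 h pools, and was 3.08-fold higher at 6 h and 2.55-fold at 18 h. Gata2, which restrains fat cell differentiation, was 1.79-fold higher, and Nr1h3, a sterol-sensing nuclear receptor, at least 1.82-fold lower. Pparg, the master regulator of fat cells and a factor of alveolar macrophages, was under the floor in all 4 pools, at 23.6, 35.8, 14.3 and 18.6 units.

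The gluconeogenesis and fasting list, which holds Pck1, stood higher at 6 h. Like the other lists, it was chosen with earlier results of these data known. Of its 16 compared genes, Pck1, Irs2 and Pdk4 were above the floor in the 6 h pool but not in the unexposed pool, so they could only come out higher. Of the 13 measured in both pools at 6 h, 11 lay above unexposed lungs, 6 were past 2-fold higher and none lower, and the median was 0.57, beside 45.0% above and a median of -0.04 for all genes so measured. Among all 5359 genes so measured, 98 were at least 2-fold higher. With Pck1, Irs2 and Pdk4 added, 7 of 16 passed 2-fold, beside 2.17% of all genes compared, and the median was 0.79. These 7 were Fkbp5, Angptl4, Ddit4, Pdk4, Sesn1, Sgk1 and Per1, several of them induced by glucocorticoids. Angptl4 and Pdk4 are also counted in the uptake and oxidation lists. Not all of the list moved: Pcx, Gpd1 and Cpt1a had log2 differences of -0.26, 0.05 and 0.14 at 6 h. At 18 h only Angptl4 was past 2-fold, beside 1.59% of all genes higher. The median was -0.03, like that of 90 h.

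**Figure D4:**
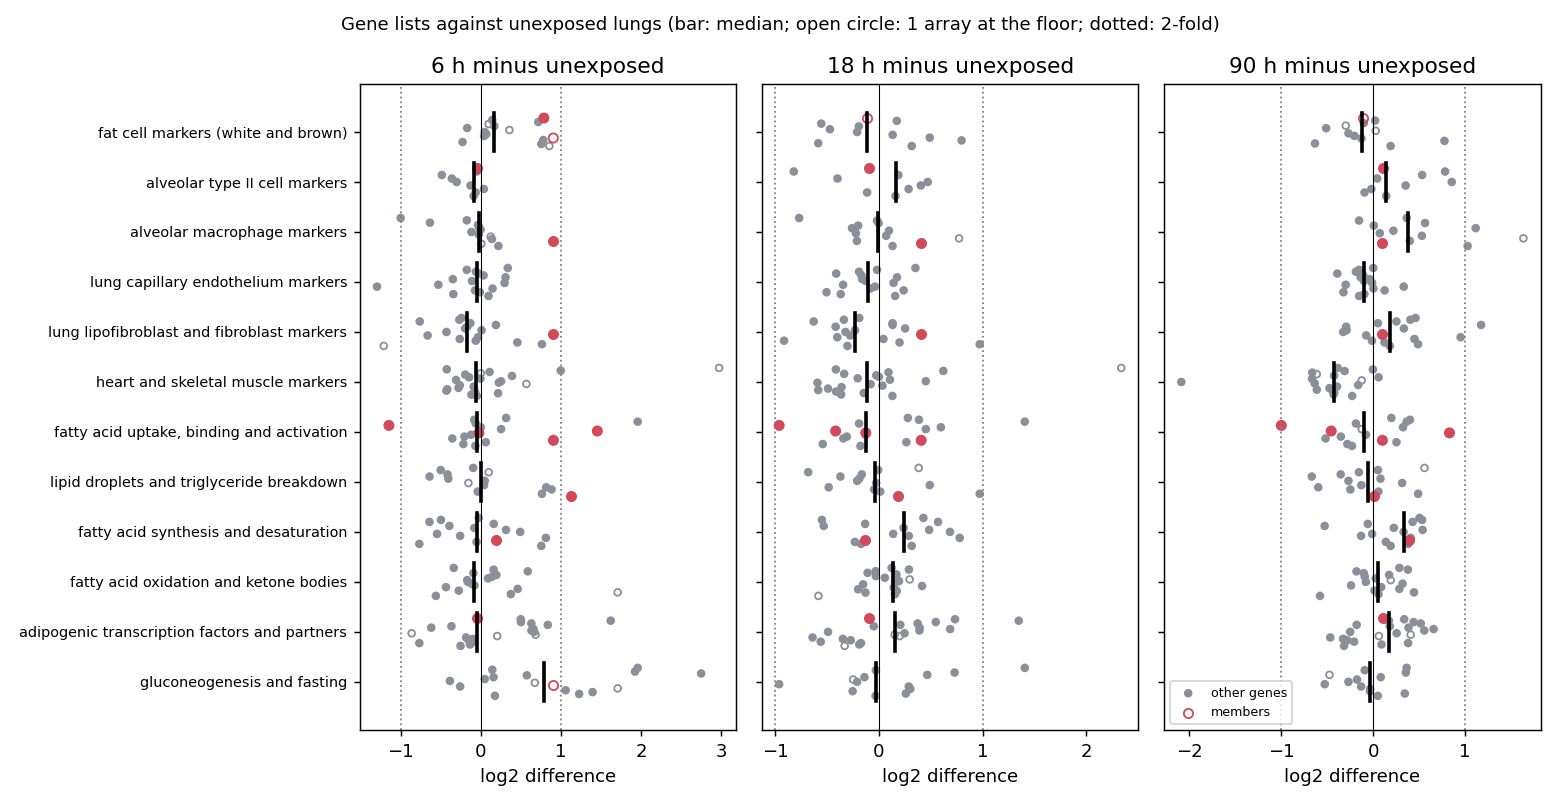
Log2 difference from unexposed lungs (horizontal axis) at 6, 18 and 90 h for the compared genes of 12 lists (rows), with members in red, the median as a bar, bounds as open circles and 2-fold as dotted lines. At 6 h the gluconeogenesis and fasting list has a median of 0.79 and the fat cell list one of 0.17, while the medians of the other 10 lists lie between -0.17 and 0.00. Both lists, and some of the other 10, hold genes above the floor at 6 h but not in unexposed lungs.

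The genes whose 3 log2 differences were nearest to those of a member, out of those above the floor on all 4 arrays, are given as a description. Nearest to Fabp4 were Scel, Cirbp, Sesn1, Cdh4 and Glul, with root mean square differences of 0.24 to 0.30. Nearest to Pnpla2 were Ppm1a, Per1, Akap12, Mkrn1 and Eif5, at 0.08 to 0.12. Nearest to Adipoq were Carhsp1, Lrrc8a, Hk2, Hnrnpk and Retreg1, at 0.05 to 0.09, a likeness that the floor at 18 and 90 h partly sets. Nearest to the bright Scd1 probe set were Ackr1, Itgax, Ptprd, Trim25 and Folr2, at 0.03 to 0.07. Nearest to Cd36 by its r-suffixed probe set were Rgs2, Tdgf1, Ung, Fgf17 and Igkv6-23, at 0.09 to 0.13, each lower in all 3 exposed pools. With 4 arrays and 5082 or 5083 candidate genes, such likeness arises among many unrelated genes.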

How the data were processed

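The authors deposited 1 linear intensity per probe set and array for 4 pools of total RNA. The sources used here do not give the software, background correction or scaling behind them. Probe sets were named through the platform annotation. Arrays were scaled to a common mean after trimming 2% at each end, and a floor was placed at their 40th percentile (77.7 units) before taking log2. The brightest probe set on average stood for its gene, and all member probe sets are given. Genes were compared when above the floor on at least 1 of the 2 arrays, and called at 2-fold.

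With 1 array per group no test was made, and lists are described by counts and medians beside those of all genes. Members and lists were chosen with earlier results of these data known. Named genes are all members, list genes past 2-fold at any time, up to 4 further per list by size at 6 h, defining cell type markers, and the 5 nearest genes per member. The cAMP, CCAAT and GC box motifs, and the split by suffix, were added after seeing the data. Calculations used Python 3.11.15, numpy 2.4.6 and pandas 2.3.3, and the code was tested on simulated data. Alternatives were 3 scalings, 2 floors, a pseudocount of 40, probe sets averaged, suffixed probe sets left out, a threshold of 1.5-fold and other list summaries.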

Additional observations from a re-analysis of the deposited data

How the results depend on the processing

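Of the 324 recomputed member differences, 292 kept their call or, where not called, moved by less than the robust SD between probe sets of a gene (0.21 to 0.28). Fabp4 and Pnpla2 stayed at least 2-fold higher at 6 h under all 8 alternatives, with log2 differences of 1.30 to 1.57 and 1.08 to 1.24. The 2 higher members became 5 with a threshold of 1.5-fold. The single lower member at 6 h, Cd36, became 0 with a pseudocount, a floor at the 60th percentile, probe sets averaged, and suffixed probe sets left out, where its log2 difference was 0.65 in place of -1.15. At 18 h the count of lower members was 1 at 1.5-fold. At 90 h that count was 1 at 1.5-fold and 1 with median scaling, and the count of higher members was 1 at 1.5-fold. For 18 h against 6 h, the 1 lower member became 3 after lowering the floor to the 25th percentile, 3 with a pseudocount and 4 at 1.5-fold, and for 90 h against 18 h 1 was higher at 1.5-fold. Pck1 was past 2-fold at 6 h with the lower floor and the pseudocount (1.55 and 1.05), and Lpl without scaling (1.02). The median of the fat cell list at 6 h was 0.54 with a pseudocount, and that of the uptake list at 18 h was 0.18 without suffixed probe sets. Other list medians moved by less than that SD. Unscaled values shifted the median of all genes to 0.07, 0.12 and 0.16 at 6, 18 and 90 h. The floor shortens differences of dim genes, as the values of Pck1 and Adipoq show. A floor at the 60th percentile left Adipoq without a value at 18 and 90 h against unexposed lungs, and Cd36 without one between exposed pools. Apart from these, the cause of a change was not tested. No paired analysis was possible because each group has 1 array.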
